A study of Mus musculus with 14 samples.

Results

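Of 8 livers with Mettl3 deleted in hepatocytes, 3 had a Cdkn1a value above 300, and these 3 (knockouts 3, 6 and 7, of 14 livers in all) are described here against the 5 knockouts below 300 (knockouts 1, 2, 4, 5 and 8). The Cdkn1a values of the 3 high-Cdkn1a livers were 481, 520.4 and 549.6 normalised estimated counts. The 5 other knockouts were at 92.7, 109.9, 162, 49.9 and 118, in the order of their numbers. The member nearest to the threshold from above was thus knockout 3 and the nearest from below was knockout 4. The 6 controls had a lowest value of 18.3, a median of 25.8 and a highest value of 41.1. The 3 livers were chosen by their measured Cdkn1a values. Because these set the division, every difference between the 3 and the 5 livers is given as a description with no test, and Cdkn1a itself is used for nothing further.

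All 14 livers came from C57BL/6 mice of 5 weeks with floxed Mettl3 alleles. The 8 knockouts had Alb-Cre in addition: the albumin promoter, active in hepatocytes, drives the recombinase, and the other cells of the liver keep the gene. The controls are described by their labels as Mettl3 floxed, with no Cre named. Total RNA was sequenced once per liver, and the labels name no sex, litter, fasting state or time of collection. Nothing in the labels says whether replicate numbers stand for more than separate mice.

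Mettl3 is the catalytic subunit of the enzyme that writes N6-methyladenosine (m6A) into messenger RNA, a mark that affects how transcripts are spliced, translated and degraded. Cdkn1a encodes p21, an inhibitor of cyclin-dependent kinases that is a classical target of the tumour suppressor p53, and in injured liver it is induced in hepatocytes that meet DNA damage or a block of the cell cycle. A liver under such stress is known to lose part of the hepatocyte program, to gain markers shared with bile duct cells and to draw in macrophages.

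Several properties of the libraries ran across the division and bear on what follows. By Y-linked transcripts and Xist, replicates 1 to 4 of both groups were Y-positive and the remaining 6 livers were Xist-high, so that of the high-Cdkn1a livers knockout 3 was Y-positive and knockouts 6 and 7 were Xist-high. Depth followed the same line: the Y-positive libraries held 24.2 to 33.8 M estimated reads (M, mega) and the Xist-high libraries 11.1 to 19.3 M. Counts over all genes and for part of the lists are therefore repeated within a class. These compare knockout 3 with knockouts 1, 2 and 4, and knockouts 6 and 7 with knockouts 5 and 8. Where a list has no such counts here, its pooled values mix the classes. Protein-coding mitochondrial transcripts made up 7.85% and 7.91% of the signal of knockouts 6 and 7, 3.53% of knockout 3, 3.04% to 4.23% of the 5 other knockouts and 2.77% to 5.47% of the controls. In knockout 4 the pancreatic enzyme transcript Amy2a5 stood at 2184 against 25.1 to 94.8 in the 3 livers and at most 15.6 in the other 4 knockouts. The summed signal of the 3 high-Cdkn1a livers, 16.8 to 18.5 M, was below that of every other library (19.1 to 27.6 M), so the scaling of the values matters: with sums set equal outside ribosomal and mitochondrial RNA, the median gene moved by 0.22 on the log2 scale towards the 3 livers.

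Mettl3 did not separate them. Its values were 84.4, 116 and 92.98 in knockouts 3, 6 and 7 and 76.9, 106, 122, 105 and 91.7 in knockouts 1, 2, 4, 5 and 8, and the sets overlapped. The controls were all higher (lowest 199, median 219, highest 263). In whole liver RNA the values include cells that keep the gene, so the extent of deletion in hepatocytes was not measured. Across all 8 knockouts Mettl3 fell by 1.17 on the log2 scale (standard error 0.12, limma adjusted p = 1.32e-05), and with knockouts 3, 6 and 7 left out it fell by 1.16 (standard error 0.13, adjusted p = 0.000129). Mettl3 overlaps Tox4 and Cdkn1a overlaps the uncharacterised transcript AC167363.2 on the opposite strand, and the counting strand is not given in the sources used here. AC167363.2, looked up after values were seen, did not follow Cdkn1a: it stood at 127, 31.2 and 48.5 in the 3 livers and at 302, 200.4, 236, 54.03 and 69.1 in the 5.

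To show how far each liver lay from the controls without reference to the division, genes were counted that were at least 2-fold above the highest or below the lowest of the 6 controls (26028 genes). In knockouts 3, 6 and 7, 794, 1112 and 1124 genes lay above the control range by this measure and 642, 1155 and 1037 lay below it. In the 5 other knockouts the counts were 280 to 597 above and 163 to 614 below. Each control, held against the other 5, gave 39 to 322 above and 114 to 460 below. Among the 10821 genes with a mean value of at least 100, where shallow libraries scatter less, the 3 livers gave 367 to 535 above and 375 to 624 below, and the other knockouts 115 to 203 and 55 to 154. Knockout 3 was the mildest of the 3 by this count, and on the full gene set its count below the control range (642) was close to that of knockout 5 (614), a shallow library.

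**Figure D1:**
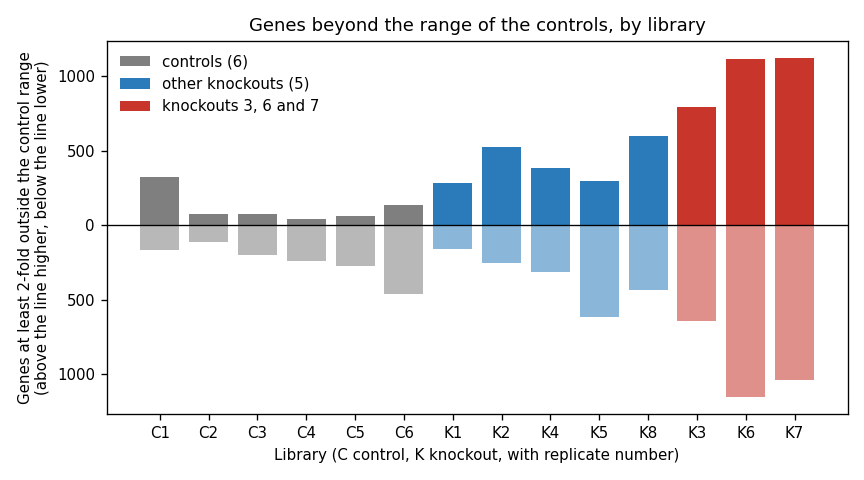
Number of genes (vertical axis) at least 2-fold above the highest control (bars upward) or below the lowest control (bars downward) in each library, with each control compared with the other 5. Knockouts 6 and 7 exceed 1000 genes in both directions, knockout 3 has 794 and 642, and the other 5 knockouts have at most 597 above and 614 below.

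A gene is called apart here when all 3 high-Cdkn1a livers lay above, or all 3 below, all 5 other knockouts and the medians of log2(value + 1) were at least 1 apart, which is 2-fold. A value of 10 or more was needed in 3 or more of the 8 knockouts, and of 24742 genes that met this 891 were apart higher in the 3 livers (3.60%) and 561 apart lower (2.27%). Of the 891, 37 (4.15%) reached 10 in the 3 livers alone and could thus enter only on the higher side. With equal sums outside ribosomal and mitochondrial RNA the counts were 1556 and 293, so that the higher share went from 61.4% to 84.2%. Without the 2-fold minimum, 2721 genes (11.0%) did not overlap on the higher side and 2044 (8.26%) on the lower. Within the Y-positive class 1357 genes (5.48%) were apart higher in knockout 3 and 1111 (4.49%) apart lower, and within the Xist-high class 1604 (6.48%) and 1455 (5.88%). These shares are the background against which the lists below are read. Since the division was made on these same libraries, neither the shares nor the lists' counts are evidence that the livers differ.

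Of the 891 genes apart higher, the median of the other 5 knockouts lay within the range of the controls for 526 (59.0%) and above it for 265 (29.7%). All 3 livers lay above every control for 754 (84.6%). Of the 561 apart lower, the other 5 knockouts were within the control range for 280 (49.9%) and already below it for 195 (34.8%). All 3 livers lay below every control for 402 (71.7%). Knockout 3 was the lowest of the 3 for 548 of the genes apart higher (61.5%) and the highest of the 3 for 339 of those apart lower (60.4%), against 34.6% and 35.3% of all genes. Most of the genes apart were therefore outside the control range in the 3 livers, and knockout 3 most often lay on the side of the other knockouts.

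The gene lists used below were assembled by function. Some genes belong to several lists, among them Spp1, Mmp12, Gdf15, Sesn2 and Abcc4, so the counts of different lists are not independent. Members apart are counted per list, and the median difference is that of the medians of log2(value + 1), the 3 livers minus the 5, for which the median over all 24742 genes was 0.001. The limma counts compare all 8 knockouts with the 6 controls, where 2697 of 23554 genes (11.5%) were called higher and 2583 (11.0%) lower at an adjusted p of at most 0.05. With equal sums outside ribosomal and mitochondrial RNA these counts became 8036 and 828, and the higher share went from 51.1% to 90.7%. With knockouts 3, 6 and 7 left out, the 5 remaining knockouts, which had been chosen for low Cdkn1a, gave 2165 genes higher (9.19%) and 2176 lower (9.24%) than the same controls.

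**Figure D2:**
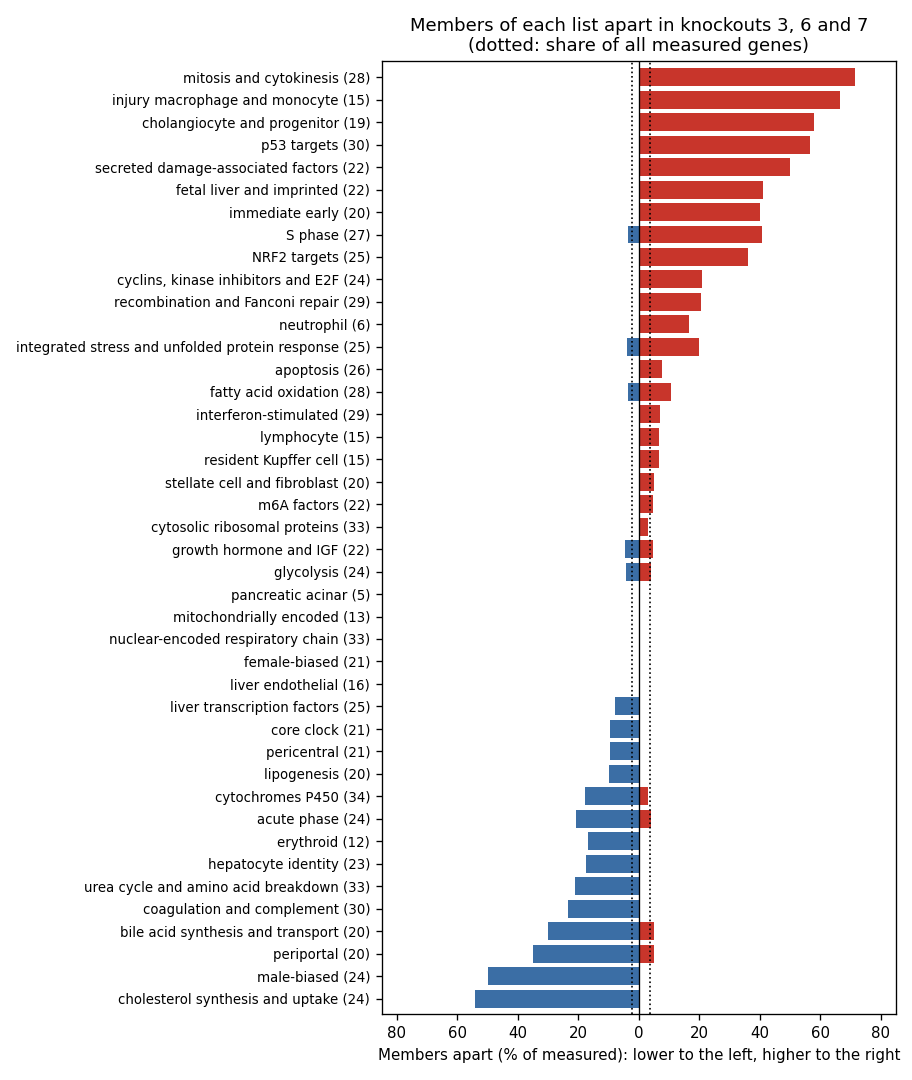
Percentage of measured members (number in brackets) of each gene list that lay apart in knockouts 3, 6 and 7, higher to the right and lower to the left, with the shares over all 24742 genes (3.60% and 2.27%) as dotted lines. With the values as deposited, mitosis genes (20 of 28) reach farthest to the right and cholesterol genes (13 of 24) farthest to the left.

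Targets of p53 were higher in the 3 livers: 17 of 30 measured targets other than Cdkn1a were apart higher and none apart lower, with a median difference of 1.10. Those apart were Mdm2, Ccng1, Phlda3, Btg2, Bax, Trp53inp1, Zmat3, Sesn2, Gtse1, Eda2r, Tnfrsf10b, Aen, Ddb2, Polk, Ddit4l, Psrc1 and Gdf15. Within the classes 13 were apart higher in knockout 3 and 18 in knockouts 6 and 7. With equal sums 19 were apart higher. With quantile normalization 14 were, and Ddb2, Gdf15 and Tnfrsf10b were no longer among them. Phlda3, an inhibitor of Akt signalling, was at 400.01, 604 and 707 in knockouts 3, 6 and 7 and at 69.99, 33.2, 59.7, 43.6 and 53.4 in knockouts 1, 2, 4, 5 and 8, with controls at 13.98 to 32.7. The groups were ordered without overlap, controls lowest and the 3 livers highest, with medians 11.1-fold apart between the knockout sets. Psrc1, a spindle protein, was at 147, 206 and 187 in the 3 livers against 17.7, 11.5, 14.7, 8.65 and 15.5 in the 5, and the 5 overlapped the controls (5.15 to 14.9). Ddit4l, a regulator of mTOR signalling, was at 71.4, 97.1 and 128 against 9.45 to 25.7.

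Mdm2, the ubiquitin ligase that limits p53 and is itself its target, was at 470.01, 835 and 684 in the 3 livers, whereas the 5 other knockouts (303, 217, 346, 237 and 326) lay within or below the range of the controls (259 to 359). Bax, which permeabilises mitochondria, was at 1420.2, 1053 and 1439.9 against 825, 538, 612, 559 and 641. Gdf15, a stress hormone, was at 342, 365 and 362 against 266, 166, 165, 67.3 and 131, and 4 of those 5 were above every control (30.4 to 104). Mdm2, Bax and Gdf15 were singled out after values were seen. In the fit of all 8 knockouts against controls 12 of the 30 targets were called higher and 1 lower, and with the 3 livers left out 11 higher and 2 lower. Of 26 other genes of cell death 2 were apart higher, the pro-apoptotic Bcl2l11 (178, 229.96 and 194 against 77.2 to 121) and the necroptosis effector Mlkl (203, 223 and 195 against 58.7 to 126). With quantile normalization their differences of medians were 0.90 and 0.91, under the 2-fold minimum, and none of the 26 was apart.

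**Figure D3:**
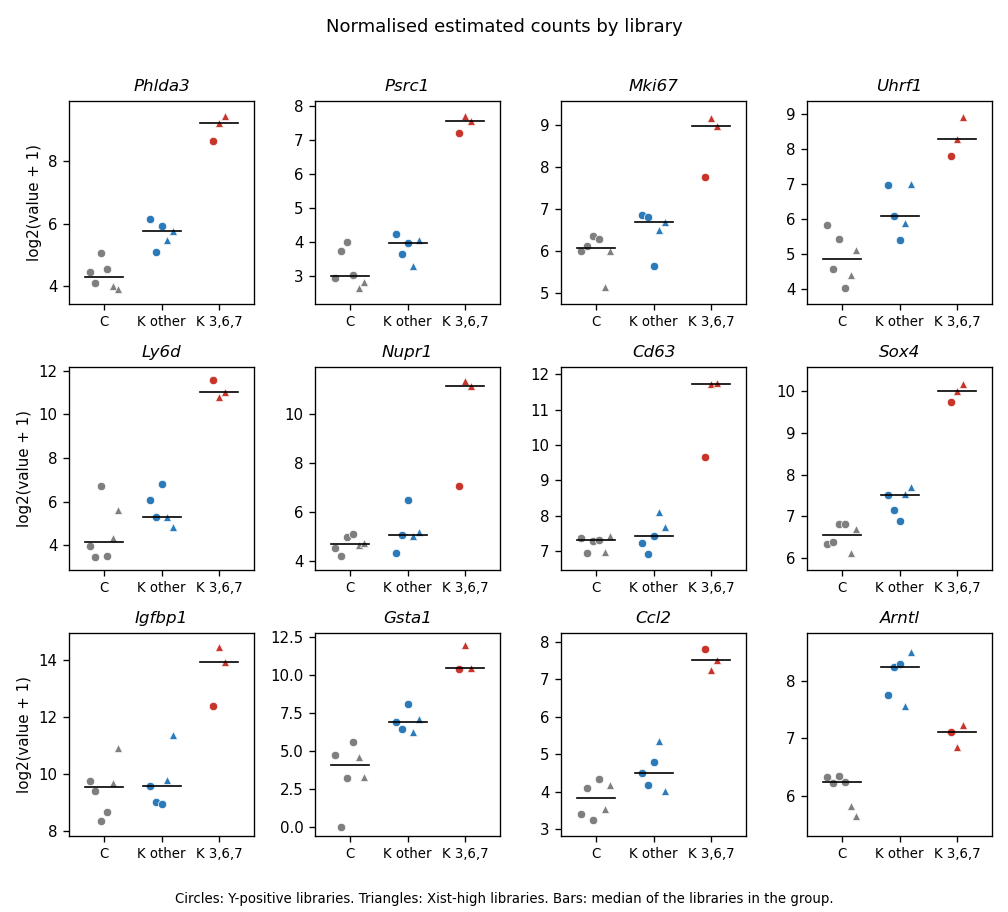
Log2(value + 1) of 12 genes (vertical axes) in each library, for the 6 controls (C), the 5 other knockouts and knockouts 3, 6 and 7, with Y-positive libraries as circles, Xist-high libraries as triangles and the median of each group as a bar. In 11 panels the 3 red points lie above all others. Arntl is the exception, with the 3 livers between the controls and the other knockouts. Genes for which knockout 3 is the lowest of the 3 include Nupr1, Cd63, Mki67 and Igfbp1.

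Cell-cycle genes were higher beside the inhibitor that set the division. Of 28 genes of mitosis and cytokinesis, 20 were apart higher and none lower, with a median difference of 1.53. The list level, the median over members relative to the controls, was 1.42, 2.49 and 2.12 in knockouts 3, 6 and 7 and 0.22 to 0.74 in the 5 others. Within the classes 15 were apart higher in knockout 3 and 26 in knockouts 6 and 7. Mki67, which coats mitotic chromosomes, was at 214, 573 and 502 in the 3 livers against 114, 109.8, 48.8, 89.2 and 102 in knockouts 1, 2, 4, 5 and 8, with controls at 34.1 to 79.9. Kif20a, a kinesin of cytokinesis that overlaps Cdc23, was at 97.4, 346 and 178 against 51.3, 25.98, 29.4, 26.2 and 46.5. Knockout 3 held the lowest value of the 3 for both genes, with a median difference from knockouts 1, 2 and 4 of 0.96 for Mki67, under the 2-fold minimum, and 1.70 for Kif20a. Plk1, a mitotic kinase, was near the lower limit of measurement (11.6, 38.9 and 18.4 against 5.71, 2.83, 4.12, 3.68 and 6.13) and passed the minimum of 10 through the 3 livers alone, so its place among the 20 was open to it only on the higher side. The fit of all knockouts called 11 of 27 tested mitosis genes higher and none lower, and with the 3 livers left out 4 higher and none lower.

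S phase genes were less uniform. Of 27 measured, 11 were apart higher and 1 lower, with a median difference of 0.90. Those higher were Mcm3, Mcm5, Mcm6, Cdc6, Cdc45, Gins2, Rrm2, Uhrf1, Fen1, Lig1 and Chaf1a. Uhrf1, which carries DNA methylation through replication, was at 221, 307 and 482 in the 3 livers and 124, 67.2, 41.6, 57.8 and 125 in the others, with controls at 15.3 to 56.1. Gins2, a subunit of the replicative helicase that overlaps Gse1, was at 302, 479 and 404 against 196, 92.1, 127, 208 and 130.2. All 8 knockouts were above every control (30.1 to 57.5) for this gene. Unlike these, Mcm10, a replication initiation factor, was apart lower at 245, 207 and 165 against 1487, 1102, 1654, 866 and 488, and its controls were at 2377 to 2807 in the Y-positive class and 1088 and 1315 in the Xist-high class. The fit of all knockouts called 15 S phase genes higher and 2 lower, against 9 and none with the 3 livers left out.

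Among cyclins, inhibitors of cyclin-dependent kinases and E2F factors, 5 of 24 were apart higher and none lower, with a median difference of 0.42. Cdkn2b, the kinase inhibitor p15, was at 46.5, 42.8 and 47.96 in the 3 livers against 3.36, 9.37, 10.2, 3.43 and 4.85 in the 5, the latter within the controls' range of 3.13 to 13.7. Cyclin D1 (Ccnd1) was at 933, 554 and 802 against 176 to 417, with controls at 241 to 692. The growth regulator Myc was at 804, 1256 and 1015 against 133 to 402, and all 3 livers were above every control (57.9 to 249). Of 29 genes of homologous recombination and the Fanconi pathway, 6 were apart higher, among them the nuclease Exo1 (20.6, 27.6 and 33.9 against 3.89 to 13.2), Rbbp8, which starts end resection (441, 457 and 407 against 176 to 224), and Brca1 (23.2, 34.2 and 38.5 against 13.6 to 19.7).

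The promoters of the apart cell-cycle genes were searched for the short sequences that such genes are known to share. The windows ran from 250 bases before to 50 bases after the RefSeq start (GRCm38.p6). The E2F motif was written as TTTCCCGC, TTTGGCGC, TTTCGCGC or TTTGCCGC and the cell cycle genes homology region (CHR) as TTTGAA or TTCGAA, each on both strands. CHR was in 18 of 22 mitosis promoters with a window (81.8%), in 12 of 14 of those apart higher (85.7%) and in 18% of 12848 measured protein-coding genes. The E2F motif was in 9 of 22 S phase promoters (40.9%), in 6 of 10 of those apart higher (60.0%) and in 3.89% of measured genes. All 604 promoters of protein-coding genes apart higher held CHR in 17.9% and the E2F motif in 4.97%, close to the shares of all genes. Example promoters were taken from apart genes that hold their list's motif. The choice is not a full ranking by difference, and Kif20a is not among the examples. The promoters below belong to the S phase genes Uhrf1 (chr17:56304063-56304362, plus strand) and Cdc6 (chr11:98907901-98908200, plus strand) and to the mitosis genes Mki67 (chr7:135716330-135716629, minus strand) and Plk1 (chr7:122159185-122159484, plus strand). They are shown 5′ to 3′ with the motif in capitals. A match describes these letters and is not a site of binding.
Uhrf1: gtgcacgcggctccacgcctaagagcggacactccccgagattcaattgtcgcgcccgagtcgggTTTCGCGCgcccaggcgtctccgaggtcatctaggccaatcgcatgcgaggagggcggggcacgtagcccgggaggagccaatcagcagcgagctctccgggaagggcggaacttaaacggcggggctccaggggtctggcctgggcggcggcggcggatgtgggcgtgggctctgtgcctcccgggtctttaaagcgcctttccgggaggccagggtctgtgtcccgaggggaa
Cdc6: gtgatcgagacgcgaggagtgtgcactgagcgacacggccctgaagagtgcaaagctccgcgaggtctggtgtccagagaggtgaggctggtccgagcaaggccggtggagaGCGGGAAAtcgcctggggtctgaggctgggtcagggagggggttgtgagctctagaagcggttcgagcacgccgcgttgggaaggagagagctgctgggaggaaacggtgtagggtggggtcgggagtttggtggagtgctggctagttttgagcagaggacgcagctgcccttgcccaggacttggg
Mki67: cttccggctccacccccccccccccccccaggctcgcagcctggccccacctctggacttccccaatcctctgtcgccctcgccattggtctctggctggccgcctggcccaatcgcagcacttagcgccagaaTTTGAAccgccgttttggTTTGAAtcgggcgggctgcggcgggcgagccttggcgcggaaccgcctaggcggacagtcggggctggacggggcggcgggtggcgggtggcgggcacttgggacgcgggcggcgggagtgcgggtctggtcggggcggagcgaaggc
Plk1: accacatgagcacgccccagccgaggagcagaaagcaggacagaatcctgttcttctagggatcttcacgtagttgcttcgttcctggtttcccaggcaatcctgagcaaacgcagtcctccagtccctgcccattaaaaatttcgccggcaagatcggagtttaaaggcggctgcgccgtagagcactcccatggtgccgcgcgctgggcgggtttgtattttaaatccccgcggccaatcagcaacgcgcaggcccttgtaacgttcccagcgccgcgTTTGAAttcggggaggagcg
The first motif base lay 185 bases before the start in Uhrf1, 138 before it in Cdc6, 116 and 98 before it in Mki67 and 31 after it in Plk1.

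Genes were then ranked among the protein-coding genes apart and above the median level, without predicted genes (Gm and Rik names). The 12 with the largest higher difference were Bex2, Nupr1, Ly6d, Akr1b7, Sprr1a, Bex1, Cd36, Igfbp1, Gpnmb, Cd63, Calml4 and Ahnak2. Ly6d, a lipid-anchored surface protein, was at 3022, 1791 and 2045 in knockouts 3, 6 and 7 and at 65.8, 38.2, 112, 37.7 and 27.5 in knockouts 1, 2, 4, 5 and 8, 52.2-fold apart by medians, with controls at 10.2 to 103. Sprr1a, a cornified envelope protein, was at 449, 457 and 283 against 6.04, 10.1, 17.03, 18.8 and 16.2, and all 5 other knockouts were above every control (0.68 to 2.18). Ahnak2 was at 933, 548 and 887 against 60.1, 60.3, 65.8, 73.6 and 61.5, and here the 5 lay within the control range of 40.8 to 84.4. For none of these 3 genes was knockout 3 the lowest of the 3 livers.

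For others of the 12, knockout 3 stood far below its companions. Nupr1, a chromatin protein of the stress response, was at 133, 2651 and 2276 in the 3 livers against 18.9, 31.7, 88.4, 31.2 and 34.98 in the 5. Bex2 was at 33.2, 1157 and 1060.1 against 2.13, 7.37, 7.03, 11.1 and 5.75 and Bex1 at 37.4, 281 and 278 against 11.9, 29.1, 2.92, 10.6 and 18.6, both small X-linked signalling adaptors. The differences within the Y-positive class were 2.03, 2.09 and 1.58 for the 3 genes, and within the Xist-high class 6.17, 6.94 and 4.22. Akr1b7, an aldose reductase, was at 98.03, 498 and 645 against 14.1, 12.9, 7.0, 34.3 and 12.9. Calml4, a calmodulin relative, was at 265, 679.6 and 934 against 33.2, 70.05, 38.03, 60.3 and 46.3. Cd36, a fatty acid transporter, was at 2025, 6010 and 3263 against 1124, 148, 134, 156 and 165, and the controls themselves spanned 63.3 to 1926.

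Of 22 secreted factors associated with damage and senescence, 11 were apart higher and none lower, with a median difference of 1.08, namely Gdf15, Ccl2, Cxcl2, Il1b, Tnf, Mmp12, Timp1, Igfbp1, Plaur, Plat and Ccl5. Of these Timp1 and Tnf reached 10 in the 3 livers alone. The monocyte chemokine Ccl2 was at 223, 151 and 180.4 in the 3 livers and 21.5, 17.1, 26.6, 39.9 and 15.3 in the 5, of which knockouts 2 and 8 lay within the range of the controls (8.60 to 19.3). Igfbp1, a binding protein of insulin-like growth factors that rises in fasting, was at 5371, 22425 and 15639 against 777, 524, 499, 887 and 2634. The highest of the 5, knockout 8, was also above every control (326 to 1952). Mmp12, a macrophage elastase, was at 314, 340.3 and 123 against 58.8, 37.98, 57.3, 44.05 and 39.6, and here all 8 knockouts were above the controls (10.7 to 21.3). Immediate early genes gave 8 of 20 apart higher, of which Egr2 reached 10 in the 3 livers alone and could enter only on the higher side. The transcription factor Egr1 was at 342, 646 and 626 against 107, 111, 75.1, 89.4 and 115. For Egr1 the 5 lay below every control (129.8 to 497) and the 3 did not. Klf6, another such factor, was at 372, 463 and 427 against 87.2 to 122, and Ier3 was at 45.9, 49.8 and 87.9 against 9.37 to 21.02.

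Of 25 targets of NRF2, the regulator of antioxidant and conjugation genes, 9 were apart higher (Hmox1, Gsta1, Gsta2, Gstm3, Abcc4, Cbr3, G6pdx, Pgd and Mgst3) and none lower, with a median difference of 0.63. The glutathione transferase Gsta1 was at 1312, 3984 and 1377 against 118, 86.4, 268, 72.9 and 132, with controls at 0 to 47.5, and since Gst genes share sequence its reads may be split among relatives. The carbonyl reductase Cbr3 was at 373, 486 and 514 against 64.5, 93.8, 124, 17.7 and 66.6. Abcc4, an exporter of conjugates and bile acids, was at 1425, 2885 and 2610.5 against 368, 489, 675, 332 and 437, and all 8 knockouts were above the controls (58.3 to 153). All 8 knockouts against controls gave 13 NRF2 targets higher and 3 lower, and 10 and 2 with the 3 livers left out.

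The integrated stress and unfolded protein response was split: 5 of 25 genes were apart higher and 1 lower, with a median difference of 0.004. The 5 were Atf3, Ddit3, Trib3, Sesn2 and Nupr1. Within the classes 4 were apart higher and none lower in knockout 3, and 8 higher and 1 lower in knockouts 6 and 7. The median differences were -0.005 and 0.528. Knockout 4, which enters the pooled and the Y-positive comparison, had the highest list level of any library (0.509). Trib3, a pseudokinase induced by Atf4 and Ddit3, was at 268, 970.1 and 1433 against 93.5, 110.3, 106, 127 and 102, and Atf3 at 352, 694 and 647 against 61.2, 52.1, 166, 116 and 109. The chaperone Hspa5, picked after values were seen, was at 5921, 6875 and 9728 in the 3 livers and 5892, 7754, 14488, 5708 and 6857 in the 5 and overlapped, although all 8 were above every control (2969 to 4287). It rose by 1.07 on the log2 scale across the knockouts (standard error 0.19, limma adjusted p = 0.000848).

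Genes of hepatocytes were lower in the 3 livers as a broad and mostly moderate difference. In whole liver RNA, fewer hepatocytes and less of a transcript per hepatocyte cannot be told apart, and the same holds for every cell type below. Of 23 hepatocyte identity genes 17 lay below the 5 other knockouts without overlap, 4 of them at least 2-fold, and the median difference was -0.65. Within the classes 1 was apart lower in knockout 3 and 10 in knockouts 6 and 7, with median differences of -0.41 and -0.835. With equal sums 3 were apart lower. With quantile normalization 2 were apart lower and 1 higher, and Fga and Fgg were no longer apart. Apoc3, an inhibitor of lipoprotein lipase, was at 9435, 6034 and 7809.98 against 16137, 17795, 14167, 21740.4 and 18143. The fibrinogen chain Fgg was at 31573, 22069 and 19996 against 68523, 46658, 40517, 65084 and 53562, and the antitrypsin gene Serpina1c, whose reads may be shared with its paralogs, was at 46124, 38703 and 31468 against 164574, 119889.5, 134050.01, 94353 and 84389. Albumin (Alb), looked at after values were seen, was at 71232, 76245 and 81559.7 in the 3 and 110099, 85493, 61317, 120119 and 103611 in the 5, which overlapped, while all 8 knockouts were below the controls (140884 to 229192). The fit of all knockouts called 16 of the 23 lower and none higher, and without the 3 livers 10 and none. Of 25 liver transcription factors 9 lay below without overlap and 2 were apart lower. Cebpa, a master regulator of hepatocyte metabolism, was at 5852, 2369.7 and 4147 against 10354, 11276, 10979, 11898 and 8391, and Nr1i3 (CAR), the xenobiotic receptor whose gene overlaps Tomm40l, was at 1109, 822 and 936 against 2229, 2335, 1834, 2353 and 2212. Controls ranged from 11005 to 14428 for Cebpa and from 3148 to 6310.1 for Nr1i3, so that the 5 other knockouts lay near the controls for the first and below them for the second.

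Enzymes of amino acid breakdown and the urea cycle followed the same pattern. None of 33 was above, 26 lay below without overlap and 7 were apart lower, with a median difference of -0.71. With equal sums 3 were apart lower and with quantile normalization 4. Within the classes 4 were apart lower in knockout 3 and 14 in knockouts 6 and 7. Those apart with the values as deposited were Arg1, Hal, Uroc1, Kynu, Haao, Sds and Gnmt. Sds (serine dehydratase, whose gene overlaps Plbd2) was at 841, 454 and 918 against 2736, 3011, 2019, 3695 and 2128, Hal (histidine ammonia lyase) at 1649.8, 1595 and 2083 against 6532, 4681, 3108, 7855 and 4089.8 and Haao of the tryptophan pathway at 3807, 2539 and 3276 against 7796, 7999.6, 6456, 9721 and 8342. Zonation was not cleanly on 1 side. Of 20 periportal genes 7 were apart lower (4 with equal sums) and 1 (Cdh1) higher, and 2 of 21 pericentral genes were apart lower. Within its class knockout 3 had 5 periportal genes apart lower and none higher, and knockouts 6 and 7 had 13 lower and 2 higher. For pericentral genes 1 and 4 were apart lower, with median differences of -0.0 in knockout 3 and -0.725 in knockouts 6 and 7. The periportal immunoglobulin receptor Pigr was at 3885, 2875 and 2768 against 9121, 8984, 6378, 10228 and 8452, the latter above every control (4760.3 to 7766) except for knockout 4. Among pericentral genes Cyp2e1 was at 39125, 24715 and 29982 against 75059, 87102, 61269, 82291 and 75918 and the calcium-binding Rgn at 4008, 2874 and 5134 against 14756, 11039.9, 8667, 17621 and 16480.5.

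Cytochromes P450 gave 6 of 34 apart lower and 1 (Cyp1a1) higher, with a median difference of -0.76. The periportal enzyme Cyp2f2, whose gene overlaps Gm15883, was at 1833, 1082 and 974 against 7561, 6938, 5519, 6946 and 4648. Cyp2c54 was at 78.3, 66.1 and 129 in the 3 livers, 1633, 899, 446, 1378 and 933 in the 5 and 4065 to 9004 in the controls, a graded order without overlap, and Cyp2c genes share reads. Cyp4f14, a leukotriene hydroxylase, was at 1057, 723 and 964 against 3971, 2785, 2533, 3695 and 3313. For bile acids, 6 of 20 genes were apart lower and 1 (Abcc4) higher. Cyp8b1, the 12-alpha-hydroxylase that sets the cholic acid share, was at 872, 981 and 1055 against 4294, 2959.6, 2238, 2694 and 2907, with controls at 4432 to 8461, while Cyp7a1, the rate-limiting enzyme of the pathway, overlapped (2658, 2051 and 6492 against 3386, 4436, 5112, 5969 and 6093), both picked after values were seen. The uptake carrier Slco1a1 was at 198, 308 and 208 against 5212, 1788, 2189, 559 and 795, and Cyp7b1 at 45.3, 46.3 and 47.96 against 397, 205, 208, 149 and 158.

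**Figure D4:**
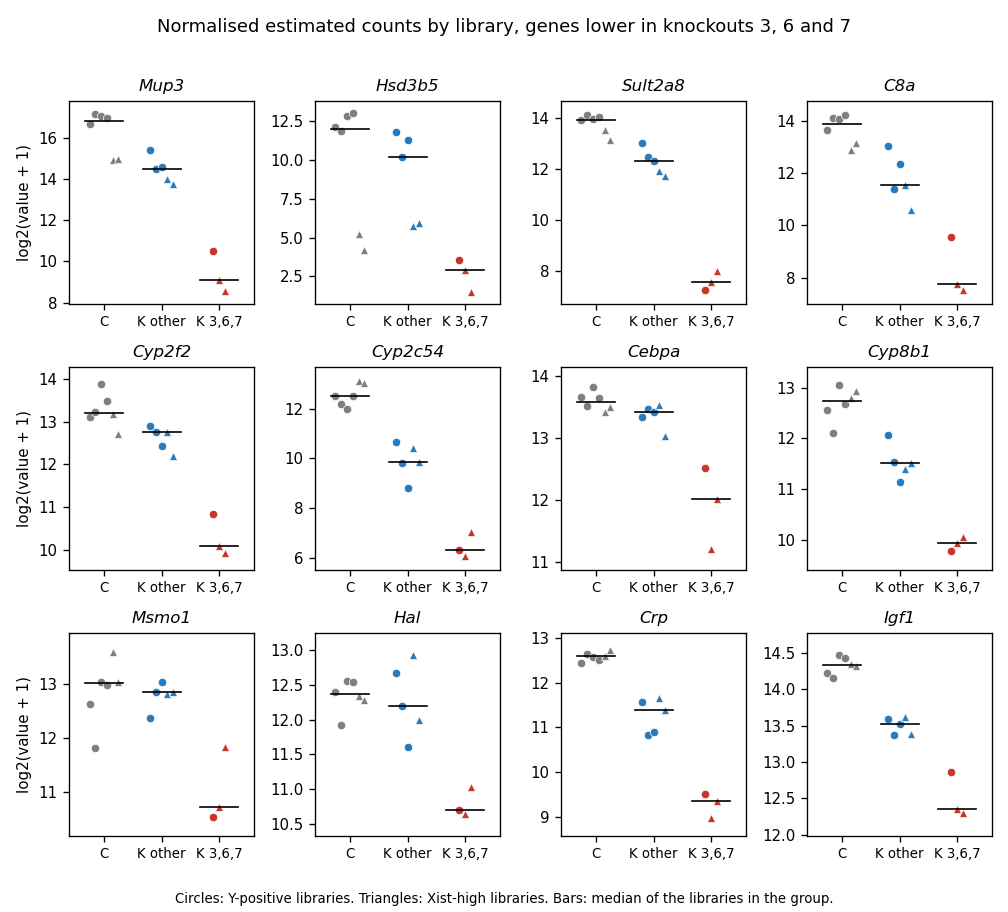
Log2(value + 1) of 12 genes (vertical axes) in each library, grouped and marked as controls (C), other knockouts and knockouts 3, 6 and 7, with Y-positive libraries as circles, Xist-high libraries as triangles and group medians as bars. The 3 red points lie below all other knockouts in every panel, and for Hsd3b5 the 2 Xist-high controls and the 2 Xist-high other knockouts are also far below the Y-positive ones.

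Genes of cholesterol synthesis and uptake were lower in the 3 livers, 13 of 24 apart and none higher (Hmgcs1, Mvk, Pmvk, Idi1, Fdps, Fdft1, Sqle, Cyp51, Msmo1, Nsdhl, Dhcr7, Insig1 and Stard4), with a median difference of -1.14. With equal sums outside ribosomal and mitochondrial RNA 5 of the 24 were apart lower, at a median difference of -0.92, fewer than the 11 of 24 male-biased genes described below. Msmo1, a sterol methyl oxidase, was at 1492, 1691 and 3669.9 in knockouts 3, 6 and 7 and 5340.3, 7391, 8462, 7245 and 7412 in the 5. The synthase Hmgcs1 was at 3796, 3543 and 10389.7 against 10647, 15350.1, 15291, 13718 and 16616 and the farnesyl synthase Fdps at 1714, 1166 and 3463 against 4365, 7558, 8229, 4977 and 5568. Knockout 7 was the highest of the 3 for all 3 genes, and for Hmgcs1 it nearly reached knockout 1. The controls were wide, 6043 to 34285 for Hmgcs1, and the 5 other knockouts lay within them. Within the classes 16 of the 24 were apart lower in knockout 3 and 14 in knockouts 6 and 7. Of 20 lipogenesis genes 2 were apart lower, the regulator Srebf1 (373, 175 and 434 against 774, 651, 750.3, 1134 and 488), which overlaps Rai1, and the acetyl-CoA synthetase Acss2 (1039, 1100.5 and 2142 against 2350.2, 3310.4, 2566, 2668 and 2855), which overlaps Gss. With equal sums no lipogenesis gene met the rule: the difference for Acss2 was -1.05 but its sets overlapped, and that for Srebf1 was -0.76.

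Fatty acid oxidation showed no common direction. Of 28 genes 3 were apart higher and 1 (Fabp1, not so with equal sums or quantile normalization) lower, with a median difference of -0.05. Ehhadh of the peroxisome was at 16422, 35907 and 21062 against 6477, 6361, 10221, 6672 and 6251, Acot2 at 1766, 4754 and 3180.2 against 417, 602, 700.04, 591 and 863, and Pdk4, which spares glucose by blocking pyruvate dehydrogenase, at 102, 946 and 229 against 21.2, 39.5, 51.95, 38.4 and 57.04. In glycolysis 1 gene of 24 was apart higher, the platelet isoform of phosphofructokinase Pfkp (69.5, 68.7 and 75.8 against 24.3 to 39.7), and 1 was apart lower.

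Secreted proteins of the complement and coagulation cascades were lower: 7 of 30 were apart lower, among them Klkb1, C8a, C8b, C9, Mbl1 and Mbl2, and none higher. C8a of the membrane attack complex was at 757, 212 and 184 in the 3 livers and 8528, 2697, 5252, 3029 and 1553 in the 5. C8b was at 2822, 1336 and 1216 against 9476, 5364, 8611, 4558 and 3867 and C9 at 1351, 433 and 602 against 4274, 2674, 2749, 1795 and 1807. Knockout 3 was the highest of the 3 for each of these. Acute phase genes gave 5 of 24 apart lower and 1 higher, and the classes did not match: knockout 3 had 3 apart higher and 2 lower in its class, and knockouts 6 and 7 had 1 and 13. Crp was at 726, 498 and 657 against 3060.3, 1818, 1897, 3252 and 2671, with controls at 5592 to 6795. The receptor antagonist Il1rn was at 253, 245 and 224 against 61.96, 52.8, 42.1, 93.7 and 47.5. Orm3 was at 23.4, 17.2 and 41.3 against 76.3, 159, 52.04, 151 and 120.1, and the 3 livers lay within the control range of 10.2 to 76.7.

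Major urinary proteins led the lower differences. The 12 largest, under the same limits as on the higher side, were Mup16, Mup18, Hsd3b5, Mup14, Mup19, Mup9, Mup1, Mup3, Elovl3, Mup2, Sult2a8 and Mup11. Major urinary proteins are pheromone carriers whose transcription depends on pulses of growth hormone, and their genes are so alike that reads cannot be assigned to 1 copy with certainty. Of 21 measured Mup genes 12 were apart lower, with a median difference of -5.89. Summed over the family they made up 0.062%, 0.012% and 0.006% of the signal of knockouts 3, 6 and 7, 0.702% to 0.857% of the Y-positive other knockouts (1, 2 and 4) and 0.167% and 0.151% of the Xist-high ones (5 and 8). The Y-positive controls were at 2.59% to 7.67% and the Xist-high controls at 0.817% and 0.497%. Within each class the 3 livers thus lay below the other knockouts, which lay below the controls.

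Mup3 was at 1456, 552 and 380.2 in the 3 livers and 43707, 22767, 24471, 16655 and 13681 in knockouts 1, 2, 4, 5 and 8, with controls from 30756 to 146962. Mup16 was at 195, 18.5 and 24.4 against 12271, 9755, 13286, 3486 and 1136. Mup18 was listed at 0 in all 3 livers and at 467, 247, 439, 267 and 98.4 in the 5. Sult2a8, a sulfotransferase of bile acids, was at 150.1, 188 and 251 against 8358, 5646, 5158, 3859 and 3409, and its differences were -5.22 and -4.06 in the classes. Hsd3b5, a steroid reductase of male liver, was at 10.6, 6.66 and 1.86 against 3534, 1173, 2467, 52.4 and 59.8. Its difference of medians, -7.26 over all knockouts, was -3.60 within the Xist-high class, where the controls were at 36.3 and 17.3. Elovl3, a fatty acid elongase, was at 34.4, 22 and 9.59 against 1232, 867, 889.9, 47.96 and 223 and likewise shrank, to -2.75 in the Xist-high class.

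Of 24 male-biased genes 12 were apart lower and none higher, and within the classes 20 were apart lower in knockout 3 and 17 in knockouts 6 and 7. No female-biased gene of 21 was apart, and the classes differed: 6 were apart higher and 2 lower in knockout 3, and none higher and 6 lower in knockouts 6 and 7. Sult2a1, a female-biased sulfotransferase, was at 22.6, 168 and 515 against 0, 2.31, 2.55, 730.5 and 154, the order following class. In the growth hormone axis 1 of 22 genes was apart higher (Igfbp1) and 1 lower (none with equal sums), Igf1, the hormone that liver secretes under growth hormone. Igf1 was at 7431, 5243 and 5024 in the 3 livers, 12278, 10599.7, 11788, 12597 and 10724 in the 5 and 18192 to 22625 in the controls, with no overlap between any of the 3 groups. Across all knockouts it fell by 1.20 on the log2 scale (standard error 0.21, limma adjusted p = 0.00106), and by 0.82 with the 3 livers left out (standard error 0.09, adjusted p = 0.000135).

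Markers of bile duct and progenitor cells were higher in the 3 livers. Of 19 measured, 11 were apart higher and none lower (Krt7, Krt8, Krt18, Krt23, Epcam, Sox4, Spp1, Cd24a, Anxa2, Tspan8 and Muc1), with a median difference of 1.20, and 11 and 10 were so within the classes. Sox4, a transcription factor of duct development, was at 850.2, 1016 and 1149 against 181, 141, 118, 184 and 206, and all 8 knockouts were above the controls (69.1 to 113). Krt23, a keratin induced in injured hepatocytes, was at 399.9, 732 and 624 against 80.5, 62.7, 42.6, 108 and 128. Epcam, an adhesion protein of ducts and progenitors, was at 172, 181 and 301 against 45.6, 46.9, 46.8, 68.5 and 72.8. The defining duct markers Krt19 (132, 105 and 219 against 73.99, 68.2, 74.9, 87.4 and 105) and Sox9 (431, 357 and 331 against 295, 323, 320.3, 166 and 193) were not apart, both looked at after values were seen. Krt19 also overlapped the controls (31.9 to 352), whereas Sox9 was above all of them in every knockout (42.9 to 133) and rose by 1.70 on the log2 scale over the 8 (standard error 0.26, limma adjusted p = 0.000304). The summed level of the list was 40499.9 to 42742.8 in the 3 livers, 17673.3 to 26412.6 in the 5 and 16649.8 to 22765.8 in the controls, and Krt8, also expressed by hepatocytes, gave 19393, 18810.3 and 19627 of it in the 3.

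Fetal liver and imprinted genes gave 9 of 22 apart higher and none lower. Gpc3, a fetal heparan sulfate proteoglycan, was at 126, 521 and 568 against 40.4, 40.4, 37.7, 58.5 and 75.2, and the imprinted Peg3 at 163, 1347 and 662 against 96.8, 91.7, 100.4, 163 and 130.03. For Peg3 the 5 other knockouts lay below every control (206 to 366) and so did knockout 3, while knockouts 6 and 7 were above. Knockouts 3 and 5 differed for Peg3 by less than the rounding, and with quantile normalization it was not apart. The classical fetal marker Afp was not apart (21.7, 119 and 181 against 17.2, 31.6, 33.1, 26.4 and 15.2), and neither was H19, an imprinted RNA, at 1783, 735 and 914 against 199, 32.4, 434, 89.6 and 747. Afp and H19 were looked at after values were seen. Over all knockouts H19 rose by 3.45 (standard error 0.75, limma adjusted p = 0.00426).

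Markers of macrophages drawn to injury were higher as well: 10 of 15 were apart higher and none lower, with a median difference of 1.15. Those apart were Trem2, Gpnmb, Cd9, Spp1, Ccr2, Cx3cr1, Cd63, Lgals3, Mmp12 and Cd44. Within the classes 14 were apart higher in knockout 3 and 7 in knockouts 6 and 7. Gpnmb, a lysosomal glycoprotein, was at 203, 614 and 639 against 32.3, 28.1, 30.5, 26.2 and 33.6, and Cd63, a membrane protein of late endosomes found in many cell types, at 813, 3379 and 3490.4 against 150.2, 119.8, 172, 274 and 203. Trem2, the receptor that marks lipid-associated macrophages, was at 82.2, 38.02 and 48.8 against 20.4, 22.4, 19.3, 32.04 and 26.04, and it was picked after values were seen. The summed level of the list was 9616 to 11472 in the 3 livers, 2610 to 5085 in the 5 and 3968 to 6706 in the controls. Of 15 markers of resident Kupffer cells only Cd68 was apart (429.6, 463 and 376 against 118 to 278), and the defining markers Clec4f (5225, 3966 and 3244 against 3128, 2323, 2816, 4965 and 3039.6) and Timd4 (214, 247 and 238 against 206, 96.6, 123, 344 and 163) overlapped. The classes differed for this list, with 10 of 15 apart higher in knockout 3 and 1 in knockouts 6 and 7.

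Markers of other cell types were counted in the same way. Apart higher were 1 of 20 stellate cell and fibroblast markers (Timp1, 28.7, 15.5 and 20.2 against 1.49 to 9.0, which reached 10 in the 3 livers alone), 1 of 6 measured neutrophil markers (S100a9, 88.9, 122 and 59.6 against 11.6 to 39.1) and 1 of 15 lymphocyte markers (Ccl5, 57.2, 49.6 and 41.6 against 13.5 to 37.01). With equal sums 6 of the 20 stellate cell and fibroblast markers were apart higher. Within its class knockout 3 had 9 of these 20, 3 of the 6 neutrophil and 4 of the 15 lymphocyte markers apart higher, and knockouts 6 and 7 had 3, 1 and 0. None of 16 endothelial markers was apart, the largest difference being that of Lyve1 (117, 155 and 126 against 55.1 to 165). Of 12 erythroid markers 2 were apart lower, Alas2 of heme synthesis (632, 464 and 322 against 778 to 1811) and the transcription factor Klf1 (33.2, 28.9 and 55.96 against 63.02 to 96.6), the latter not with equal sums. No acinar gene of 5 was apart. Interferon-stimulated genes gave 2 of 29 apart higher, Ifit2 (222, 421 and 345 against 56.6 to 133) and Rsad2 (600.1, 745 and 517 against 177 to 336), both antiviral effectors, and 4 with equal sums. In knockout 3 alone 15 of the 29 were apart higher within its class, against 2 in knockouts 6 and 7. Whether knockout 3 differs in these lists from its companions was not tested.

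**Figure D5:**
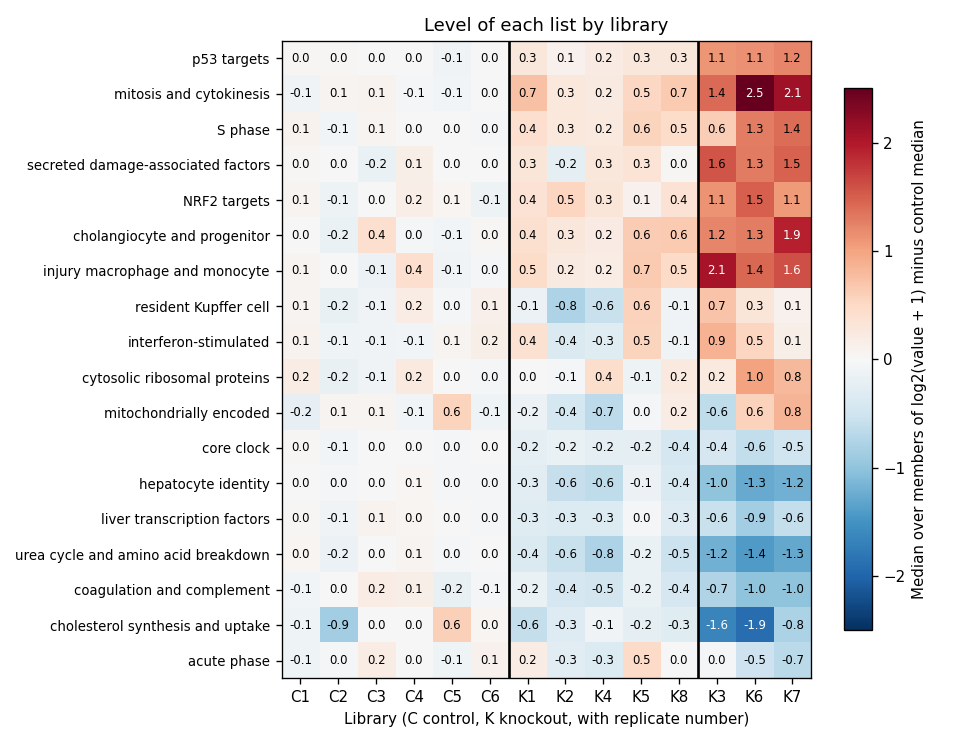
Median over the measured members of each list of log2(value + 1) minus the control median (colour and number), for each library in the order controls, other knockouts, knockouts 3, 6 and 7, separated by vertical lines. The p53 and mitosis rows are highest in the last 3 columns, the interferon row is highest in knockout 3 and lower in knockout 7, and the rows of mitochondrial and ribosomal genes are high in knockouts 6 and 7 but not in knockout 3.

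Transcripts of mitochondria and ribosomes were high in knockouts 6 and 7 and did not follow the division. None of 13 mitochondrially encoded genes was apart. The complex I subunit mt-Nd1 was at 68435, 182039.5 and 180206 in knockouts 3, 6 and 7 and 60472, 63858, 71854, 67419.7 and 90791 in the 5. None of 33 nuclear-encoded respiratory chain genes was apart, Cox4i1 having the largest difference (5245, 8854 and 7733 against 4970.3 to 6135). Of 33 cytosolic ribosomal protein genes 1 was apart higher. With equal sums outside ribosomal and mitochondrial RNA 8 of these 33 were apart higher.

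For 186 of the genes apart, 100 of those higher and 86 of those lower, the median of the 5 other knockouts lay outside the control range on the side away from the 3 livers. The core clock holds examples. In it 2 of 21 genes were apart, both lower, and with equal sums Nfil3 alone. Arntl (Bmal1), the activator of the clock, was at 138, 114 and 149.7 in knockouts 3, 6 and 7 and 216, 301, 313, 188 and 360.2 in the 5, with controls at 49.1 to 80.6. Nfil3, a repressor of clock output genes, was at 407, 412 and 494 against 811, 1201, 1140.2, 615 and 955, with controls at 171 to 461. In the fit of all knockouts Arntl rose by 1.59 on the log2 scale (standard error 0.25, limma adjusted p = 0.000409) and by 1.97 with the 3 livers left out (standard error 0.19, adjusted p = 5.25e-05). The corresponding values of Nfil3 were 1.21 (0.28, adjusted p = 0.00616) and 1.61 (0.24, adjusted p = 0.000675). Since the time of collection is not in the labels, its part in the clock genes was not tested. Dbp, a clock output gene picked after values were seen, was at 1719, 1613 and 1139 in the 3 and 1949, 1329, 1125, 1909.7 and 855 in the 5, below every control (2611 to 3582) in all 8.

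Among 22 factors of the m6A pathway, Mettl3 included, only Igf2bp3, a reader of the mark that is normally fetal and overlaps Malsu1, was apart (28.1, 83.1 and 58.5 against 24.02, 13.6, 19.97, 21.5 and 7.98), and knockout 3 was close to the highest of the 5.

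For 5 of the genes above, picked after values were seen, the fit of all knockouts against controls is given with and without the 3 livers. Phlda3 rose by 2.63 on the log2 scale over all 8 knockouts (standard error 0.68, limma adjusted p = 0.0115) and by 1.34 without the 3 (standard error 0.25, adjusted p = 0.00322). For Ly6d the estimate was 3.10 (standard error 1.12, adjusted p = 0.0588), which missed the threshold, and 1.05 without the 3 (adjusted p = 0.227). Cebpa was at -0.78 with an adjusted p of 0.0872 and -0.24 with an adjusted p of 0.154. Mki67 was at 1.32 with an adjusted p of 0.0576 and 0.51 with an adjusted p of 0.187. Sult2a8 fell by 3.26 (standard error 0.90, adjusted p = 0.017) and by 1.50 without the 3 (standard error 0.23, adjusted p = 0.00101). These fits share the 6 controls and 5 of the knockouts, so they are set side by side and not compared by a test.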

How the data were processed

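Liver RNA of 8 knockout and 6 control mice was sequenced with a stranded total RNA kit, per the labels. Per the submitters' processing notes the tools were kallisto and sleuth on mm10, and versions are not given in the sources used here. The signal values that the authors deposited were normalised estimated counts per gene. Read from the values, each library's estimated counts appeared to have been scaled by 1 factor. Depth (11.1 to 33.8 M estimated reads) was therefore taken as the summed signal divided by the worth of 1 read. This is an inference, since 25.3% to 28.5% of the low values of a library were whole numbers of reads. No binomial interval was computed. The 75859 lines held 54446 genes.

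The design allowed for counts, and the log-scale test was used because the values were not whole. Knockouts were compared with controls by limma 3.58.1 in R 4.3.3 (trended, log2(value + 1), genes with at least 10 in at least 6 libraries, Benjamini-Hochberg). The code was tested on simulated data. Genes apart were described with no test. Named were the 12 largest differences each way among protein-coding genes apart and above the median level, without Gm and Rik names. Up to 3 apart members per list were also named, or the largest where none was apart. Members, lists and rules were chosen with earlier results of these data known. Some list members that are counted are not reported here by name. Coordinates are from GENCODE M21. Alternatives were other pseudocounts, filters, scalings, libraries left out, and fits with class or replicate number.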

Additional observations from a re-analysis of the deposited data

Results flagged for a closer look

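Single libraries stood far from the rest of their group for 5 of the 242 groups of values looked at (the 8 knockouts or the 6 controls, for each gene whose values are given and for depth and composition). Chance flags about 1 in 20 groups. All 5 were controls. Most of these genes were named because the knockouts fell into sets of 3 and 5, which leaves a single knockout little room to stand apart, so nothing is read from the number of groups or from the absence of knockouts. Control 1 had the serine dehydratase gene Sds at 6394, with the other controls at 2689 to 3310. Control 2 had the farnesyl synthase gene Fdps at 4335 (others 9380 to 12797) and Cyp4f14 at 4527 (others 6281 to 7484). Control 5 had Mki67 at 34.1 (others 62.7 to 79.9) and mt-Nd1 at 76974 (others 49454 to 53445). These controls enter the ranges given beside the knockouts, and the cause was not tested.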

How the results depend on the processing

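The counts of genes apart kept within 1.5 times under a pseudocount of 0.1, quantile normalization and 2 filters on level (at least 50 in 3 knockouts, at least 10 in all 8). They moved further with equal sums outside ribosomal and mitochondrial RNA (1556 higher and 293 lower), without the 2-fold minimum (2721 and 2044), with 3-fold (324 and 193), in the Y-positive class alone (1357 and 1111), in the Xist-high class alone (1604 and 1455), and with a mean of at least 100, an alternative chosen after seeing the data (443 and 299). Leaving out 1 knockout gave 886 to 1283 higher and 576 to 1151 lower. Of these, leaving out knockout 3 (1151 lower) and knockout 5 (847 lower) moved a count by over 1.5 times. A rule over fewer libraries admits more genes by construction. Among the differences of medians of 108 named genes under 18 alternatives each, 1820 values moved by no more than the spread within the sets and 124 by more. No gene apart changed direction. The filters on level and the other fold minimums leave a difference of medians unchanged by construction. Their values are among the 1820 and say nothing about stability.

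Genes called in knockouts against controls numbered 2697 higher and 2583 lower. Equal sums gave 8036 and 828, and an adjusted p of at most 0.01 gave 1311 and 1358. Leaving out 1 library gave 2189 to 2863 higher and 2039 to 2792 lower. For the 12 genes whose change is given, Ly6d and Mki67 lay near the threshold: 7 alternatives called Ly6d and 4 called Mki67, equal sums among both. Phlda3 and Sult2a8 missed 0.01.

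Replicate numbers are shared between groups. A fit with the replicate block called 2037 higher and 1917 lower. Deviations of libraries with the same number correlated at 0.071 to 0.228, and 2 of 6 controls were closest to the knockout of their own number, so the numbers were not taken as pairs. Depth is estimated from the values, and low values in the Xist-high libraries are the least precise.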

Other observations

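Protein-coding genes made up 794 of the 891 genes apart higher in knockouts 3, 6 and 7 (89.1%) and 343 of the 561 apart lower (61.1%), against 67.3% of all measured genes. For 100 of the genes apart higher (11.2%) the median of the 5 other knockouts lay below the control range, as for Egr1 and Peg3, and for 86 of those apart lower (15.3%) it lay above it, as for Arntl and Nfil3. For these 186 genes the 3 livers lay on the side of the controls as seen from the other knockouts.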
